A study of Mus musculus with 36 samples.

Results

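The response of wild-type (WT) mouse keratinocytes to raised calcium was followed at 24 h by RNA sequencing of 6 of the 36 libraries in the study, chosen by their labels. The high calcium group held 3 libraries of WT cells grown for 24 h in high calcium medium (HCM), and the low calcium group held 3 libraries of WT cells grown for 24 h in low calcium medium (LCM). LCM held 50 µM CaCl2, and HCM was the same medium with 1.2 mM CaCl2 added. Both media also carried calcium-free serum, EGF, insulin, hydrocortisone, cholera toxin and adenine, so both groups were exposed to these agents. The WT cells had an intact Pkp4 gene and were primary cultures from the epidermis of newborn pups of the C57BL/6J background, cut off from the dermis and from the air-exposed surface of skin. The study's other libraries used here for comparison were WT cells in the same media at 72 h, PKP4-KO cells, in which an exon of Pkp4 is deleted, at 24 h, and Rescue cells at 24 h, which are PKP4-KO cells carrying lentiviral EGFP-tagged human PKP4. The replicates of each group were named biological replicates without a statement that they came from separate pups, so p-values measure the spread between these libraries, which may be technical.

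Keratinocytes in low calcium stay as a flat, dividing, basal-like sheet. Raised extracellular calcium lets cadherins engage between neighbouring cells, so that adherens junctions and desmosomes form within hours, and the cells then leave the cycle and start the program of the upper epidermis. In that program spinous cells switch to the keratins Krt1 and Krt10, and granular cells make the cornified envelope, its crosslinking transglutaminases, the proteases that later shed the surface, and the lipids of the water barrier.

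Values are counts per 1000000 reads (CPM) scaled with TMM factors, which correct library sizes for composition, and are given in the order of replicates 1, 2 and 3 of each group. Fold changes are HCM over LCM on the log2 scale with their standard error. A gene is called higher or lower when its p, taken from the quasi-likelihood test of edgeR on all 36 libraries and adjusted after Benjamini and Hochberg over all tested genes, is below 0.05. Where a list is said to have no member called in a direction, edgeR and DESeq2 each called 0 there and 0 members had an unadjusted p below 0.05, unless other counts stand beside it.

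The 6 libraries held between 13602728 and 18295615 counts. HCM replicate 2 stood apart from the rest: its log2 CPM correlated across genes with r = 0.943 and 0.965 with the other HCM libraries, which correlated with each other at 0.977. It also held the shortest genes at higher levels, with the shortest of 5 equal length classes 0.873 above the longest on a log2 scale centred on the 6 libraries, against -0.505 to 0.131 in the others. Rn18s.rs5, a ribosomal RNA locus, took 3.73, 5.35 and 1.60% of the counts in HCM and 0.896, 0.929 and 1.11% in LCM. Over all genes the median log2 fold change moved with gene length, from 0.25 in the shortest class to -0.10 in the longest. The part of RNA quality and length in the results was not tested beyond the fits named here. Without HCM replicate 2, 985 genes were called higher and 617 lower, against 1163 and 980 with it, and values of genes that rest on this library are given below without it as well.

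The labelled cell type held against its markers. The 8 keratinocyte markers summed to 42713, 46519 and 49237 CPM in HCM and 37136, 44560 and 38908 CPM in LCM. The summed markers of fibroblasts lay between 0.153 and 1.49 CPM in HCM and between 0.573 and 9.41 CPM in LCM, with the highest sum in LCM replicate 1. Those of melanocytes, immune cells and endothelial cells stayed at or below 5.41 CPM in each of the 6 libraries, and among the defining markers Ptprc, Dct and Cdh5 did not reach the levels needed for testing. Pkp4, the gene deleted in PKP4-KO, had between 579 and 1443 counts in the 6 libraries and between 114 and 207 in the PKP4-KO libraries at 24 h. In bulk RNA, a change in the number of cells of a type and a change in RNA per cell cannot be told apart.

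At 24 h, 2143 of 15114 tested genes differed between HCM and LCM (14.2%). Of these, 1163 were higher in HCM (7.69% of tested genes) and 980 were lower (6.48%), so that 54.3% of the calls were higher. Without TMM factors the median of all genes moved from 0.02 to -0.27 and 24.8% of 2368 calls were higher, so the balance of the directions depends on the scaling. The higher genes moved further: their median log2 fold change was 1.03, against -0.77 for the lower genes, and 215 higher but 50 lower genes changed by at least 2 on the log2 scale. The libraries of the 2 groups did not overlap in 4285 genes (28.4%), with HCM above LCM in 13.8% and below in 14.6% of tested genes. Of the calls, 1084 higher and 962 lower genes were protein-coding, and 55 higher but 3 lower genes were long non-coding RNAs.

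**Figure D1:**
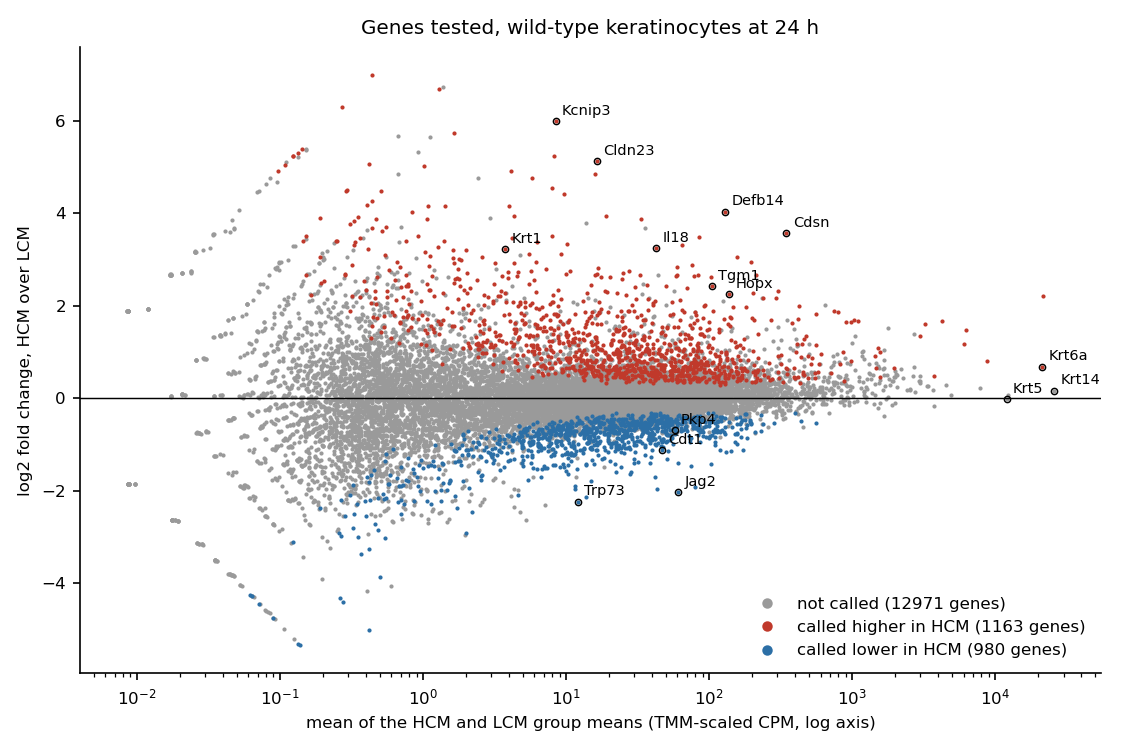
The plot shows the log2 fold change of HCM over LCM against the mean CPM of the 6 libraries (log axis) for 15114 genes, with the 1163 genes called higher in red, the 980 called lower in blue and the others in grey. The red points reach further from 0 than the blue points.

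Promoter stretches are printed for members of the cornified envelope, DNA replication and mitosis lists. For each list a short motif was set, of a factor class known from keratinocyte differentiation or from the cell cycle. Shown are the called members with the largest change whose window held that motif before the start. Members without it were passed over, so the stretches do not show how common a motif is. Windows from 250 bases before to 50 bases after the start of each gene came from the RefSeq table (build GRCm38.p6), with 1 window for each of 27025 genes, and 10323 of the 15114 tested genes were matched by symbol. The printed 120 bases were located by exact match in GRCm39, where each matched once. Capitals mark the motif matches on either strand. A match is a run of letters and not a measured binding site.

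The letters TGANTCA of AP-1 factors (Fos and Jun proteins) are in capitals in 3 cornified envelope genes. Scel lies at chr14:103750657-103750776 (forward strand), Sprr2d at chr3:92246197-92246316 (forward strand) and Sprr2e at chr3:92259200-92259319 (forward strand). The first match lies 36 bases before the start of Scel and those of the others 193 bases before their starts. Sprr2d and Sprr2e were identical at 103 of the 120 positions, so reads of these small genes may also be shared.
Scel: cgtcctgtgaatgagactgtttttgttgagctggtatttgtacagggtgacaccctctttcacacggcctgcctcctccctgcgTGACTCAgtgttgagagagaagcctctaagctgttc
Sprr2d: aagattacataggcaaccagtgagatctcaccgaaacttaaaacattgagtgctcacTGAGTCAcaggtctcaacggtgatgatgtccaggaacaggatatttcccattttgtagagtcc
Sprr2e: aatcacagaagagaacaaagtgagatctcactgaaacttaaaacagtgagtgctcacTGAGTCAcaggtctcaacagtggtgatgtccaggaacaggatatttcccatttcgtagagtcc

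The letters TTTNNCGC of E2F factors, which drive DNA replication genes, are in capitals in Cdc6 at chr11:98798783-98798902 (forward strand), where the match is on the opposite strand, and in Mcm5 at chr8:75835932-75836051 (forward strand), where matches on both strands overlap.
Cdc6: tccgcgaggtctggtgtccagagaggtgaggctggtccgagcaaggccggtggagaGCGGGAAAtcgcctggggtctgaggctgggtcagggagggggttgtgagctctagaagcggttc
Mcm5: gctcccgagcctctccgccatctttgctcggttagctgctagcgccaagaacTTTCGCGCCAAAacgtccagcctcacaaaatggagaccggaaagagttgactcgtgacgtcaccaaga

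The letters TTTGAA of the cell cycle homology region, an element of mitotic genes, are in capitals in Cdc20 at chr4:118294541-118294660 (reverse strand) and in Cdk1 at chr10:69188743-69188862 (reverse strand).
Cdc20: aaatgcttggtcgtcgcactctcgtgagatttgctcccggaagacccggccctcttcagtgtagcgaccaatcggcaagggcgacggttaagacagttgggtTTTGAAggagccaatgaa
Cdk1: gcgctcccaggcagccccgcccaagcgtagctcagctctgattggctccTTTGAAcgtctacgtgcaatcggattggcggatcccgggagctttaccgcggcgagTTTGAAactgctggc

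The AP-1 letters stood in 7.93% of all windows, in 5.43% of those of tested genes, in 10.7% of those of genes called higher and in 3.77% of those of genes called lower. They stood in 14 of 43 cornified envelope windows (32.6%) and in 5 of 18 kallikrein windows (27.8%). The cornified envelope list holds near-copies such as Sprr2d and Sprr2e, with the match at the same position, so its windows are not all separate instances. In barrier lipid genes, most of which were called higher, they stood in 2 of 25 windows (8%). In NRF2 antioxidant targets, few of which were called, they stood in 5 of 20 windows (25%). The E2F letters stood in 5.27% of all windows, in 8.59% of those of tested genes, in 5.82% of those of higher genes, in 11.4% of those of lower genes and in 10 of 24 windows of DNA replication genes (41.7%). The TTTGAA letters stood in 18.1% of all windows, in 12.4% of those of tested genes, in 12.1% of those of higher genes, in 13.2% of those of lower genes and in 22 of 28 windows of mitosis genes (78.6%). They were also found in lists that rose, in 25.6% of cornified envelope, 27.8% of kallikrein and 26.7% of spinous layer windows. The letters AACNNGTT (GRHL), TCACNCCAC (SRE) and CCAAT (NF-Y) were searched as well. They stood in 3.39, 1.09 and 38.7% of the windows of higher genes and in 1.69, 0.26 and 37.7% of those of lower genes. In the windows of tested genes the shares were 3.37, 1.12 and 39.4%. All these shares are descriptions without a test.

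Genes of the spinous layer and early differentiation were higher in HCM for 14 of 23 tested members and lower for none, and their median log2 fold change was 1.53 against 0.02 for all tested genes, or 1.02 without HCM replicate 2 with 13 members called higher. Krt1, the type II keratin of spinous cells, was at 5.15, 8.55 and 6.73 CPM in HCM and 0.846, 0.642 and 0.677 CPM in LCM. Every HCM library was above every LCM library, although the level stayed low in both media (log2 fold change 3.22 ± 0.58, adjusted p = 0.00018). Krt10, its type I partner, was at 55.7, 57.2 and 40.2 CPM in HCM and 8.35, 9.51 and 10.99 CPM in LCM, again without overlap (log2 fold change 2.41 ± 0.40, adjusted p = 7.1e-05). Tgm1, the transglutaminase that crosslinks the cornified envelope at the membrane, was at 167, 184 and 180.01 CPM in HCM and 29.3, 35.0000000 and 34.4 CPM in LCM. The 3 values within each medium differed little beside the gap between the media (log2 fold change 2.43 ± 0.21, adjusted p = 1.8e-09). Calml3, a calmodulin-like protein of epithelia, and Dsg1a, a desmosomal cadherin of upper layers, had log2 fold changes of 2.996 ± 0.55 and 2.38 ± 0.38.

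Ivl, an envelope precursor laid down early, was at 56.8, 55.97 and 61.5 CPM in HCM and 37.8, 24.6 and 25.7 CPM in LCM. The groups did not overlap, and the difference was smaller than for the keratins (log2 fold change 0.98 ± 0.27, adjusted p = 0.011). Its adjusted p rose to as much as 0.18 in other fits, namely without TMM factors or without LCM replicate 2 or 3, where the call was lost. Ly6d and Lgals7 showed log2 fold changes of 1.40 ± 0.51 and 1.53 ± 0.82 but did not pass the test (adjusted p = 0.068 and 0.25), and both were far higher in HCM replicate 2 than in the other HCM libraries. Ly6d was at 2347, 6810.5 and 2643 CPM in HCM and 1298, 1863 and 1322 CPM in LCM, and without that library its log2 fold change was 0.74 (adjusted p = 0.475). Lgals7 was at 700.3, 5954 and 1205 CPM in HCM and 741, 1014 and 975 CPM in LCM, with a log2 fold change of 0.07 without it (adjusted p = 0.984). Tgm3, the soluble transglutaminase of later stages, was at a log2 fold change of -0.02 ± 0.19.

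Of 51 tested cornified envelope and granular genes, 25 were higher in HCM and none was lower, with a median of 1.30, or 1.24 with genes at 3 counts or fewer in a group put at their bound. Without HCM replicate 2, 19 were called higher and the median was 1.08, and without LCM replicate 3, 18 were called higher. Cdsn, which encodes the corneodesmosome protein corneodesmosin, was at 698, 615 and 606 CPM in HCM and 55.9, 56.7 and 48.1 CPM in LCM. This was a 11.9-fold difference of the group means with narrow spread in both media (log2 fold change 3.58 ± 0.22, adjusted p = 9.5e-12). Scel, encoding the envelope protein sciellin, was at 52.3, 26.2 and 28.8 CPM in HCM and 2.96, 1.98 and 1.98 CPM in LCM, with the lowest HCM value above the highest LCM value (log2 fold change 3.95 ± 0.45, adjusted p = 1.9e-07). Sprr3 and Sprr2d, small proline-rich envelope precursors, had log2 fold changes of 3.88 ± 0.42 and 3.06 ± 0.50. Sprr2d was at 245, 391 and 201 CPM in HCM and 24.8, 38.1 and 37.1 CPM in LCM, without overlap. Reads of the Sprr2 and Lce families can be split among near-identical copies, so single members are uncertain.

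The latest envelope genes were low at this time. Lor, the bulk protein of the envelope, was at 17.6, 10.6 and 15.4 CPM in HCM and 5.29, 6.59 and 6.61 CPM in LCM. The groups did not overlap, but the call (log2 fold change 1.24 ± 0.37, adjusted p = 0.021) was lost without TMM factors and without any 1 of HCM replicates 1 and 3 or the 3 LCM replicates, with an adjusted p of up to 0.099. Flg, the filaggrin precursor of granular cells, had 0 to 5 counts per library and no call. Of the late cornified envelope genes, Lce1g was at 3.297, 5.17 and 2.96 CPM in HCM and 3.38, 4.32 and 1.87 CPM in LCM, where the groups overlapped (log2 fold change 0.25 ± 0.38, adjusted p = 0.75), and its direction turned without TMM factors (-0.07).

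Of 22 tested kallikreins and inhibitors, which control the proteolysis that sheds corneocytes, 18 were higher in HCM and none was lower, with a median of 1.78. Without HCM replicate 2, 14 were called higher and the median was 1.57. Both sides of the system rose. Among the proteases, Klk12 was at 43.4, 81.1 and 44.7 CPM in HCM and 8.41, 10.9 and 7.29 CPM in LCM, with all HCM values above all LCM values (log2 fold change 2.67 ± 0.38, adjusted p = 7.6e-06), and Klk5, Klk6, Klk7, Klk10, Klk13 and Klk14 had log2 fold changes between 1.22 and 1.89. Among the inhibitors, Spink5, which encodes LEKTI, was at 662, 319.6 and 457 CPM in HCM and 146, 72.6 and 104 CPM in LCM, the group means being 4.46-fold apart (log2 fold change 2.16 ± 0.43, adjusted p = 0.00065). Serpinb3a had 14, 22 and 13 counts in HCM and 0, 0 and 2 counts in LCM, and with LCM at or below 3 counts in each library it was at least 6.05-fold higher. Klk11 had 7, 25 and 6 counts in HCM and 1, 0 and 2 counts in LCM, at least 5.03-fold higher over a floor of 3 counts per library, but its call was lost without HCM replicate 2 (log2 fold change 2.48, adjusted p = 0.135). With at least 10 counts required in every library, fewer genes were tested and 10 of these calls were left.

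Barrier lipid genes were higher in HCM for 22 of 30 tested members and lower for none, with a median of 1.06. Without TMM factors 14 were called. The members named here act at several steps, from work on the acyl chains to their loading into lamellar granules. Cyp4f39, which hydroxylates the very long acyl chains of barrier ceramides, was at 33.1, 28.95 and 28.7 CPM in HCM and 4.65, 5.95 and 4.22 CPM in LCM, a separation much larger than the spread (log2 fold change 2.62 ± 0.20, adjusted p = 1.5e-10). Alox12b, a lipoxygenase of the same ceramides, was at 15.9, 12.8 and 11.6 CPM in HCM and 3.17, 3.38 and 1.98 CPM in LCM, also without overlap (log2 fold change 2.24 ± 0.30, adjusted p = 2.4e-06). Lipm and Lipk, epidermal lipases, rose by 2.23 ± 0.26 and 1.96 ± 0.26. Elovl4, which elongates the acyl chains, Pnpla1, which esterifies them, and Abca12, which loads them into lamellar granules, had log2 fold changes of 1.64 ± 0.18, 1.61 ± 0.21 and 1.32 ± 0.28.

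**Figure D2:**
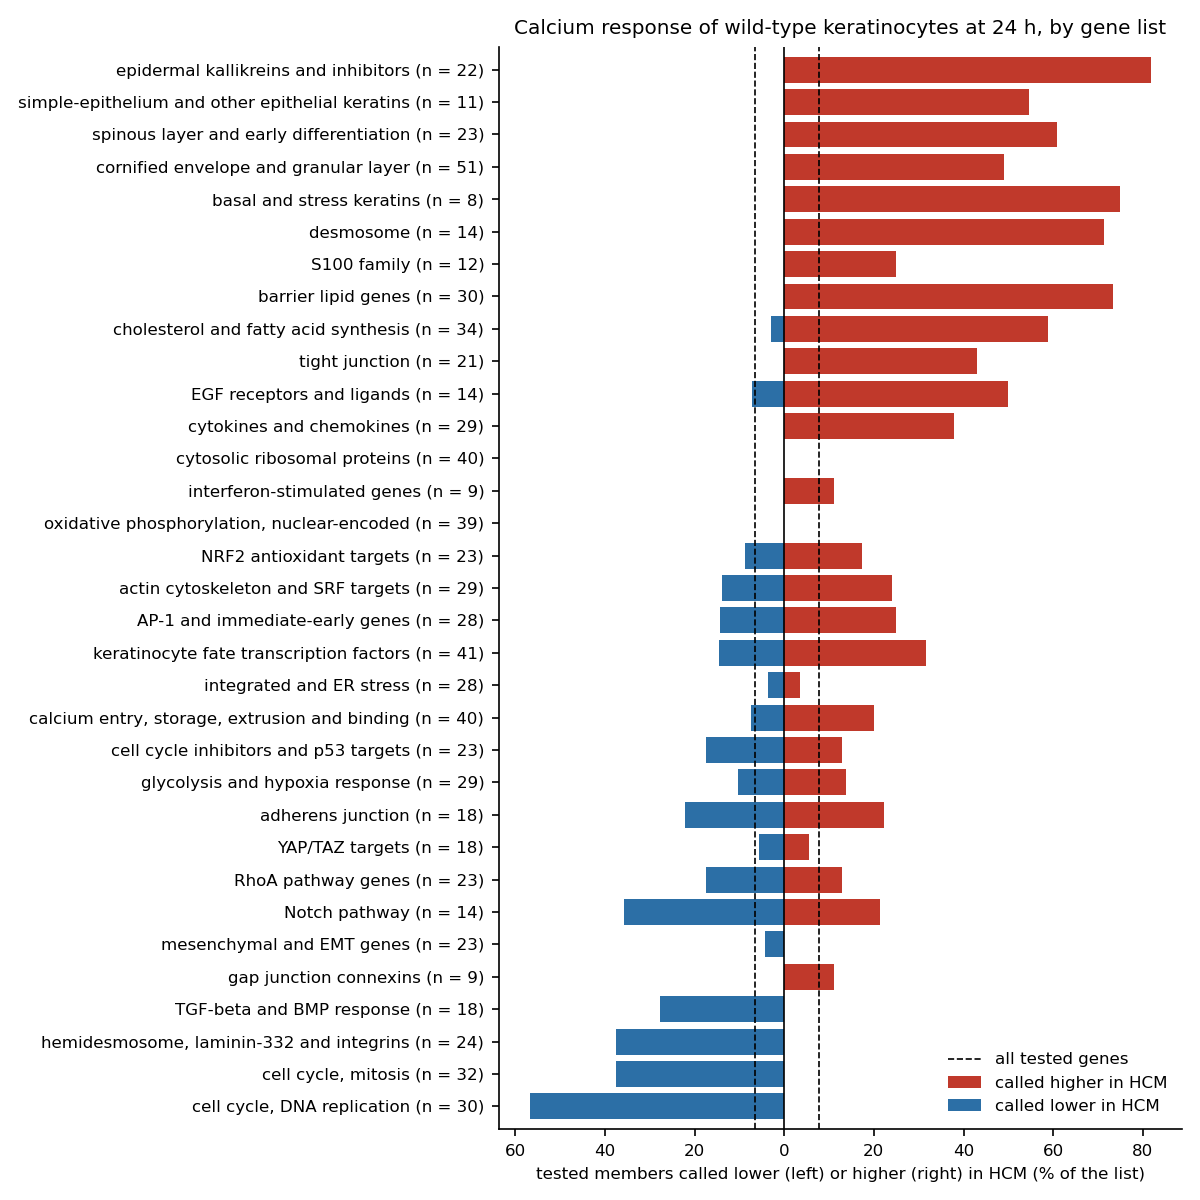
Bars give the percent of the tested genes of each of 33 gene lists called higher in HCM (right, red) or lower (left, blue), and dashed lines mark the shares of all tested genes, 7.69% and 6.48%. Differentiation, desmosome, tight junction and cholesterol lists extend to the right, and the DNA replication, mitosis and integrin lists extend to the left. The adherens junction list extends to both sides, with 22.2% each.

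The keratins that filled these cells were those of basal and wounded epidermis in both media. Per kb of gene, Krt14 was the most abundant keratin with group means of 15529 CPM per kb in HCM and 13865 in LCM, while Krt10 stood at 24.1 and 4.55 CPM per kb. Krt14 and its partner Krt5 had log2 fold changes of 0.16 ± 0.15 and -0.02 ± 0.18, and neither passed the test (adjusted p = 0.54 and 0.98); the sign for Krt14 turned to -0.13 without TMM factors. The stress keratins rose from an already high level. Krt16 was at 8992, 9309 and 9221 CPM in HCM and 3104, 3879 and 2958 CPM in LCM, with 3 close values in HCM well above the LCM values (log2 fold change 1.47 ± 0.16, adjusted p = 1.2e-07). Krt6b was at 6519.6, 7261 and 5571 CPM in HCM and 2090.4, 2343 and 1643 CPM in LCM and Krt6a at 26246, 26227 and 26268 CPM in HCM and 15181, 18351 and 15490.0000000 CPM in LCM, both without overlap (log2 fold changes 1.67 ± 0.19 and 0.68 ± 0.13). These 2 genes are near-copies, and reads may have been split between them.

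Krt15, a keratin linked to basal cells and hair follicle stem cells, moved with the differentiation genes: it was at 43.01, 46.6 and 36.2 CPM in HCM and 6.71, 6.3001 and 8.07 CPM in LCM, without overlap (log2 fold change 2.57 ± 0.27, adjusted p = 4.3e-08). Of the keratins of other epithelia, 6 of 11 tested were higher and none was lower, and 3 were called with at least 10 counts in every library. Krt4, a keratin of moist stratified epithelia such as oral mucosa and oesophagus, was at 8.45, 5.604 and 8.56 CPM in HCM and 0.317, 0.3500000 and 0.573 CPM in LCM, a 18.2-fold difference (log2 fold change 4.17 ± 0.35, adjusted p = 7.6e-10). Its partner Krt13 was at 156, 169 and 111 CPM in HCM and 21.9, 28.0000000 and 19.2 CPM in LCM, likewise without overlap (log2 fold change 2.66 ± 0.27, adjusted p = 3.1e-08). Krt80, which is found near desmosomes in many epithelia, rose by 2.27 ± 0.17, while the simple epithelial Krt8 and Krt18 had log2 fold changes of 0.62 ± 0.52 and -0.49 ± 1.30 and did not pass the test.

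Many of these genes are neighbours. In the epidermal differentiation complex on chromosome 3 (GRCm39, from 90418340 to 93474510), 24 of 65 tested genes were higher in HCM, against 7.69% of all tested genes. A positive log2 fold change was found for 62, but some of these rest on HCM replicate 2. Without it, Sprr2b, Sprr2k and Lce3a lost their calls (adjusted p = 0.128, 0.26 and 0.088), and S100a4 and S100a6 had log2 fold changes of -1.87 and -0.55. The clusters were not counted again without this library. In the type II keratin cluster on chromosome 15, 9 of 16 tested genes were higher, and in the type I cluster on chromosome 11, 7 of 18. In the kallikrein cluster on chromosome 7, 8 of 10 were higher. The genes of these clusters include members of the lists above, so the counts are not separate evidence.

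**Figure D3:**
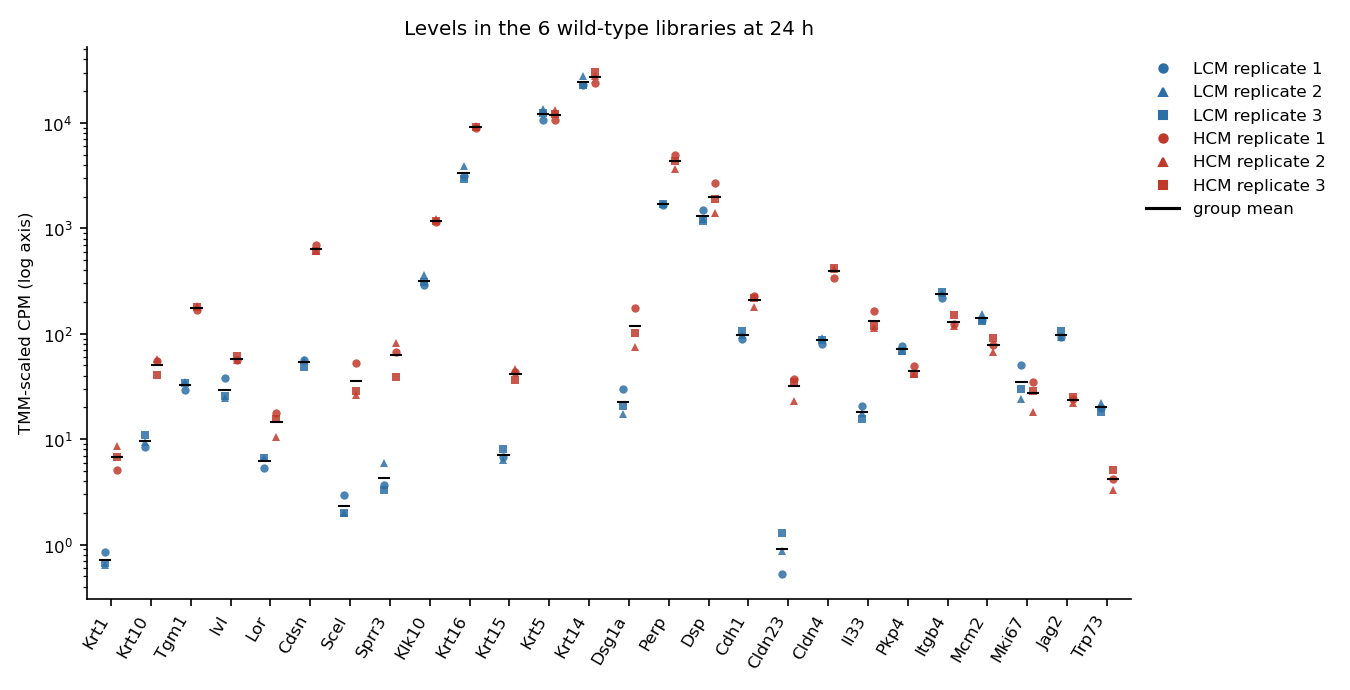
Points are the TMM-scaled CPM (log axis) of 26 genes in the 3 HCM and 3 LCM libraries, with a line at the mean of each group. Cdsn and Cldn23 separate by more than 10-fold, while Krt5 and Krt14 overlap between the media.

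Desmosome genes were higher in HCM for 10 of 14 tested members and lower for none, with a median of 1.13. The count fell to 5 without TMM factors and to 6 with only these 6 libraries in the fit. Dsc2, a desmocollin, was at 43.01, 23.7 and 26.6 CPM in HCM and 7.56, 5.19 and 6.04 CPM in LCM, with no overlap (log2 fold change 2.31 ± 0.38, adjusted p = 5.4e-05). Perp, a membrane protein needed for desmosome assembly, was at 4924, 3680.0000000 and 4308 CPM in HCM and 1667, 1705 and 1705 CPM in LCM, with tight values in LCM (log2 fold change 1.35 ± 0.16, adjusted p = 2.9e-07). Jup, which encodes plakoglobin and links the cadherins to the plaque, rose by 1.09 ± 0.20. Dsg4 had 8, 14 and 11 counts in HCM and 0, 1 and 1 counts in LCM, at least 4.04-fold higher, with its call lost in the fit that pairs replicates (adjusted p = 0.111) and without HCM replicate 2 (adjusted p = 0.111), among others. Dsp, which encodes desmoplakin, the link to keratin filaments, was at 2711, 1381 and 1913 CPM in HCM and 1478, 1227 and 1184 CPM in LCM. Its groups overlapped and it did not pass the test (log2 fold change 0.63 ± 0.31, adjusted p = 0.21). Dsg2 and Pkp2, the isoforms of simple and basal cells, had log2 fold changes of -0.60 ± 0.39 and -0.41 ± 0.42 and did not pass either.

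Adherens junction genes were split, with 4 of 18 tested members higher and 4 lower. Cdh1, E-cadherin, was at 229, 181 and 218 CPM in HCM and 88.7, 97.2 and 106 CPM in LCM, and every HCM library exceeded every LCM library (log2 fold change 1.105 ± 0.18, adjusted p = 5e-05). The nectins Nectin4 and Nectin2, adhesion molecules that start the contact, rose by 1.70 ± 0.24 and 1.62 ± 0.14. The catenins that tie cadherin to actin did not pass the test, with log2 fold changes of 0.07 ± 0.14 for Ctnna1 and -0.07 ± 0.27 for Ctnnb1, and P-cadherin (Cdh3) was at -0.02 ± 0.14. In contrast, Pkp4 and Arvcf, of the p120-catenin family, were lower in HCM. Pkp4, which encodes plakophilin 4, was at 48.9, 41.6 and 41.5 CPM in HCM and 76.3, 67.9 and 69.1 CPM in LCM. The 3 HCM values lay close together below the 3 LCM values (log2 fold change -0.69 ± 0.16, adjusted p = 0.0023). Arvcf, its relative at the same junctions, was at 7.16, 7.97 and 8.97 CPM in HCM and 11.4, 13.4 and 16.04 CPM in LCM, also without overlap (log2 fold change -0.76 ± 0.15, adjusted p = 0.00083). Ajuba and Limd1, LIM proteins that bind tensed junctions, were lower as well, but without HCM replicate 2 neither was called, and the number of lower members was 2.

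Tight junction genes were higher in HCM for 9 of 21 tested members and lower for none (0 by edgeR and by DESeq2, 2 at an unadjusted p below 0.05), with a median of 0.64. There were 5 called with at least 10 counts in every library. Cldn23, a claudin of differentiated epithelia, was at 37.6, 23.2 and 34.7 CPM in HCM and 0.529, 0.875 and 1.302 CPM in LCM. It went from barely detected to a moderate level (35.3-fold, log2 fold change 5.13 ± 0.35, adjusted p = 3.9e-11). Cldn4, a sealing claudin of the granular layer, was at 337, 409 and 422 CPM in HCM and 80.7, 90.9 and 88.1 CPM in LCM, without overlap (log2 fold change 2.17 ± 0.18, adjusted p = 6.1e-10). Cldn1, whose loss opens the skin barrier in mice, the transmembrane Ocln and the cytoplasmic linker Cgn rose by 1.43 ± 0.19, 1.40 ± 0.31 and 1.70 ± 0.24. Among gap junction genes, Gja1, encoding the main connexin of basal keratinocytes, had log2 fold change -0.31 ± 0.12, adjusted p = 0.078.

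Genes that hold basal cells on the matrix were lower in HCM for 9 of 24 tested members and higher for none, with a median of -0.47. Without HCM replicate 2 the number called was 5. Itgb4, the β4 integrin chain of hemidesmosomes, was at 123, 119 and 150.3 CPM in HCM and 218, 241 and 252 CPM in LCM. All HCM values were below all LCM values (log2 fold change -0.86 ± 0.15, adjusted p = 0.00017). Plec, which encodes plectin and ties that integrin to keratin, was at 110.5, 124 and 124 CPM in HCM and 207, 217 and 223 CPM in LCM, again without overlap (log2 fold change -0.85 ± 0.14, adjusted p = 5.2e-05). The ligand side fell with them: Lama5, a basement membrane laminin chain, and Lamb3, a chain of laminin-332, had log2 fold changes of -0.85 ± 0.20 and -0.70 ± 0.18, and the transmembrane collagen Col17a1 had -0.53 ± 0.13. Itga6, the partner of β4, had a log2 fold change of -0.76 ± 0.30 and did not pass the test (adjusted p = 0.1), and the β1 chain Itgb1 was at -0.23 ± 0.24.

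Genes of DNA replication fell together. In HCM 17 of 30 tested members were lower and none was higher, with a median of -0.61. The 2 licensing factors that load the helicase fell most among them. Cdt1 was at 29.98, 23.4 and 34.7 CPM in HCM and 59.96, 63.7 and 67.6 CPM in LCM, so that the highest HCM value was well below the lowest LCM value (log2 fold change -1.12 ± 0.14, adjusted p = 7.6e-07). Cdc6 was at 10.5, 10.7 and 9.38 CPM in HCM and 20.9, 23.98 and 21.2 CPM in LCM, with the groups apart (log2 fold change -1.11 ± 0.20, adjusted p = 0.00025). Mcm2, Mcm3, Mcm4, Mcm5, Mcm6 and Mcm7, the subunits of the replicative helicase, were all called, with log2 fold changes between -0.83 and -0.59. Pcna, the clamp of the polymerase, had -0.34 ± 0.13 and missed the test (adjusted p = 0.079), as did the G1 cyclins Ccne1 (-0.21 ± 0.15) and Ccne2 (0.000 ± 0.34).

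Mitosis genes followed with smaller steps: 12 of 32 tested members were lower, none was higher, and the median was -0.49. The number was 7 without HCM replicate 2, without LCM replicate 3, with only these 6 libraries in the fit and without a filter on low counts. Aurkb, the kinase that corrects spindle attachments, was at 53.8, 44.98 and 61.2 CPM in HCM and 84.2, 104 and 101 CPM in LCM, without overlap (log2 fold change -0.85 ± 0.14, adjusted p = 7.8e-05). Bub1b and Cdc20, of the checkpoint that delays anaphase and its target, had log2 fold changes of -0.73 ± 0.14 and -0.68 ± 0.12. Cdk1, the mitotic kinase, was at 144, 168 and 166 CPM in HCM and 189.98, 256 and 238 CPM in LCM, also with separate groups (log2 fold change -0.52 ± 0.12, adjusted p = 0.002). Mki67, the usual proliferation marker, was at 34.9, 18.2 and 28.4 CPM in HCM and 50.8, 23.8 and 30.2 CPM in LCM, where the groups overlapped and replicate 1 was highest in both media (log2 fold change -0.36 ± 0.38, adjusted p = 0.62).

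Among cell cycle inhibitors and p53 targets, 3 of 23 tested members were higher (13%) and 4 were lower (17.4%), against 7.69% and 6.48% of all tested genes. The counts moved with the libraries used, to 1 and 0 without HCM replicate 2 and to 0 lower without LCM replicate 3. Cdkn1a, which encodes the cyclin-dependent kinase inhibitor p21, was at 478, 672 and 457 CPM in HCM and 245, 294 and 268 CPM in LCM. The groups did not overlap (log2 fold change 0.99 ± 0.27, adjusted p = 0.011), but the call was lost without HCM replicate 2 or LCM replicate 1, with an adjusted p of up to 0.080. Gadd45b, a stress-induced growth regulator, kept its call in all the alternatives tried (log2 fold change 1.16 ± 0.17, adjusted p = 1.9e-05).

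Of 41 tested transcription factors of keratinocyte fate, 13 were higher in HCM and 6 were lower, the latter 3 without HCM replicate 2. The higher ones are known regulators of upper layers and barrier genes. Hopx, a homeodomain protein without DNA binding, was at 219.96, 240.04 and 223 CPM in HCM and 45.3, 50.4 and 47.3 CPM in LCM, with nearly equal values in each medium (log2 fold change 2.25 ± 0.16, adjusted p = 3.9e-11). Grhl1, a grainyhead factor that controls desmosomal cadherin genes, was at 108, 72.9 and 85.1 CPM in HCM and 19.7, 20.4 and 23.2 CPM in LCM, without overlap (log2 fold change 2.07 ± 0.21, adjusted p = 3.1e-08). Ovol1 and Zfp750, repressors of progenitor genes, and Ehf, an epithelial ETS factor, rose by 1.87 ± 0.16, 1.995 ± 0.15 and 2.02 ± 0.18. Prdm1, a repressor of granular cells, and Elf5, an ETS factor of differentiated cells, rose by 2.56 ± 0.38 and 3.02 ± 0.50 from low levels. Klf4, needed for the barrier, rose by 0.63 ± 0.20 (adjusted p = 0.035).

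Among the lower factors were genes known from basal cells. Trp73, the p63 relative p73, was at 4.22, 3.31 and 5.097 CPM in HCM and 19.7, 22.2 and 18.2 CPM in LCM. The mean ratio of HCM to LCM was 0.2100000, with no overlap (log2 fold change -2.24 ± 0.17, adjusted p = 1.1e-10). Id3, an inhibitor of helix-loop-helix factors, was at 18.9, 21.6 and 23.3 CPM in HCM and 51.8, 62.6 and 54.9 CPM in LCM, also apart (log2 fold change -1.41 ± 0.15, adjusted p = 6.6e-08), and Bnc1, basonuclin of basal cells, fell by 1.11 ± 0.25 on the log2 scale. Trp63, the basal master factor, was below LCM in all 3 HCM libraries but did not pass the test (log2 fold change -0.74 ± 0.28, adjusted p = 0.074). Dlx3 had no counts in HCM and at most 4 in LCM, so no fold is given.

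In the Notch pathway, by which neighbouring keratinocytes signal to leave the basal layer, 5 of 14 tested members were lower in HCM and 3 were higher. Ligands and their modifier were on the lower side. Jag2, a ligand of basal cells, was at 24.01, 21.9 and 25.3 CPM in HCM and 92.5, 93.9 and 107 CPM in LCM. The HCM values lay in a narrow band far below LCM (log2 fold change -2.04 ± 0.18, adjusted p = 4.2e-09). Dll1, another ligand, and Lfng, the sugar transferase that tunes the receptors, had log2 fold changes of -1.19 ± 0.28 and -1.39 ± 0.15. The receptors differed in sign, with Notch1 at -0.70 ± 0.22 and Notch3 at 1.14 ± 0.24, and the feedback target Nrarp was at 118, 83.3 and 117 CPM in HCM and 40.8, 41.7 and 46.4 CPM in LCM, without overlap (log2 fold change 1.30 ± 0.24, adjusted p = 0.00031). The higher count was 1 without TMM factors and 1 with at least 10 counts in every library, and the lower count was 3 without HCM replicate 2, LCM replicate 1 or LCM replicate 3, without a filter on low counts and in the fit that pairs replicates. The direction of Notch3 was the same in each fit, with an adjusted p of 0.064 without TMM factors.

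Calcium handling itself moved less. Of 40 tested genes of calcium entry, storage, extrusion and binding, 8 were higher (20%) and 3 were lower (7.5%), near the background for the lower ones. Atp2b4, a calcium pump of the plasma membrane, was at 17.8, 16.6 and 18.1 CPM in HCM and 7.72, 6.18 and 7.71 CPM in LCM, without overlap (log2 fold change 1.28 ± 0.21, adjusted p = 5.1e-05). Atp2c2, a pump of the secretory pathway, rose by 0.91 ± 0.17, whereas its relative Atp2c1, mutated in Hailey-Hailey disease, was at 0.19 ± 0.26. Orai2, a pore of store-operated entry, and Hpcal1, a neuronal-type calcium sensor, had log2 fold changes of -0.65 ± 0.13 and -1.09 ± 0.14. The higher count was between 3 and 5 without TMM factors, without a filter, with only these 6 libraries, and without HCM replicate 3 or any 1 LCM replicate, and the lower count was 5 without TMM factors. Kcnip3, a calcium-binding repressor and potassium channel partner that was not on this list, was at 15.9, 21.3 and 12.8 CPM in HCM and 0.423, 0.175 and 0.156 CPM in LCM, the widest separation of the media among protein-coding genes that averaged 5 CPM or more (66.3-fold, log2 fold change 6.003 ± 0.58, adjusted p = 1.5e-08).

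Of 12 S100 genes tested, which encode small calcium-binding proteins, 3 were higher and none was lower. S100a16 was at 655, 848 and 796 CPM in HCM and 273, 383 and 374 CPM in LCM, with the groups apart (log2 fold change 1.16 ± 0.18, adjusted p = 3.6e-05), and S100a7a rose by 1.76 ± 0.38 from a low level. S100a8 and S100a9, the alarmin pair of stressed skin, were much higher in HCM replicate 2 than elsewhere, with S100a8 at 7.88, 62.5 and 7.34 CPM in HCM and 4.92, 7.76 and 5.102 CPM in LCM, and did not pass the test (adjusted p = 0.19 and 0.061). Without that library their log2 fold changes were 0.36 for S100a8 and 0.76 for S100a9, against 2.12 ± 1.02 and 2.25 ± 0.81 with it, and the median of the 12 genes was 0.20 instead of 1.102.

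Of 14 EGF receptors and ligands tested, 7 were higher in HCM and 1 was lower. The higher ones were mainly ligands, which stimulate growth and migration of keratinocytes. Tgfa was at 164, 104 and 128 CPM in HCM and 49.9, 49.6 and 55.6 CPM in LCM, without overlap (log2 fold change 1.35 ± 0.20, adjusted p = 1.5e-05). Areg, amphiregulin, was at 10.9, 8.98 and 11.98 CPM in HCM and 3.01, 3.62 and 4.95 CPM in LCM, with its lowest HCM value above the highest LCM value (log2 fold change 1.46 ± 0.28, adjusted p = 0.00046), and Ereg and Btc rose by 1.70 ± 0.39 and 2.92 ± 0.58. Egfr itself was at 0.14 ± 0.18 and did not pass the test (adjusted p = 0.7), while Lrig1, an inhibitor of the receptor and a stem cell marker, was the lower member (log2 fold change -0.99 ± 0.21, adjusted p = 0.0014).

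AP-1 and other immediate-early genes went both ways, with 7 of 28 tested members higher (25%) and 4 lower (14.3%), against 7.69% and 6.48% of all tested genes. Egr3 was at 2.68, 1.08 and 1.38 CPM in HCM and 0.211, 0.175 and 0.0521 CPM in LCM, a rise from near the detection limit (log2 fold change 3.51 ± 0.61, adjusted p = 0.00011), and Junb rose by 0.67 ± 0.16. Jun, the partner of Fos in AP-1, was at 8.71, 8.33 and 10.7 CPM in HCM and 15.4, 15.6 and 16.4 CPM in LCM, lower in every HCM library (log2 fold change -0.77 ± 0.18, adjusted p = 0.0026), and the ETS factor Etv5 fell by 1.77 ± 0.28 on the log2 scale. Egr1 was at 0.04 ± 0.24 and did not pass the test, and its sign turned without TMM factors (-0.23). The number of higher members was 2 without TMM factors and 4 without HCM replicate 3, and that of lower members was 2 without HCM replicate 1 or LCM replicate 2 and with only these 6 libraries.

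Of 29 cytokines, chemokines and defensins tested, 11 were higher in HCM and none was lower (0 by edgeR and by DESeq2, 1 at an unadjusted p below 0.05). Il33, an alarmin kept in the nucleus, was at 165, 114 and 119 CPM in HCM and 20.5, 17.7 and 15.6 CPM in LCM. The HCM values were all more than 5 times the LCM values (log2 fold change 2.88 ± 0.24, adjusted p = 6.8e-10). Il18, another cytokine of the IL-1 family, was at 67.7, 100.4 and 62.9 CPM in HCM and 6.77, 9.33 and 8.17 CPM in LCM, without overlap (log2 fold change 3.25 ± 0.37, adjusted p = 1.8e-07), and Il36a and Il1a rose by 3.05 ± 0.48 and 1.06 ± 0.24, the former by 2.45 without HCM replicate 2. Defb14, a defensin, was at 37.9, 639 and 52.3 CPM in HCM and 14.7, 19.1 and 10.7 CPM in LCM, so that its mean rests on HCM replicate 2; without that library its log2 fold change was 1.61 (adjusted p = 0.457), and with replicates paired its adjusted p was 0.114. The neutrophil chemokines Cxcl1 and Cxcl2 had log2 fold changes of -0.35 ± 0.25 and -0.63 ± 0.96 and did not pass the test.

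The study's question was how Pkp4 bears on RhoA, so 23 tested genes of the RhoA pathway are given as a list. It holds genes that the study names and others, such as Ssh1 and Diaph1, that it does not name. Of the 23 genes, 3 were higher in HCM (13%) and 4 were lower (17.4%), against 7.69% and 6.48% of all tested genes. Arhgef2, which encodes the RhoA activator the paper centres on, was lower (log2 fold change -0.47, adjusted p = 0.024). Its call was lost without HCM replicate 2, LCM replicate 2 or LCM replicate 3 and with an offset for gene length (adjusted p of up to 0.168). Arhgap23, for the RhoA suppressor the paper names beside it, was at 0.08 (adjusted p = 0.78). Rhoa was at 352, 310.3 and 327 CPM in HCM and 299, 349 and 329 CPM in LCM, where the groups overlapped (log2 fold change 0.02 ± 0.10, adjusted p = 0.95), and its sign turned without TMM factors (-0.26). The kinases Rock1 and Rock2 were at 0.05 ± 0.51 and -0.07 ± 0.41, with replicate 1 highest in both media for each. Ssh1, a phosphatase that activates cofilin, was at 7.11, 6.75 and 8.104 CPM in HCM and 16.5, 16.6 and 15.4 CPM in LCM, with HCM below LCM throughout (log2 fold change -1.14 ± 0.17, adjusted p = 2.4e-05), and Arhgap35, a RhoA-inactivating protein, fell by 0.61 ± 0.14 on the log2 scale. Diaph1, a formin downstream of RhoA, and Limk2, the kinase opposing Ssh1, rose by 0.62 ± 0.15 and 0.49 ± 0.11, but without TMM factors the 3 higher calls were lost (adjusted p = 0.367 and 0.456 for these genes). The number of lower members was 2 without HCM replicate 2, without LCM replicate 3 and without a filter on low counts, and that of higher members was 1 without a filter.

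Among 29 tested actin cytoskeleton genes and SRF targets, 7 were higher (24.1%) and 4 lower (13.8%), but 1 was higher without TMM factors. The shares of all tested genes were 7.69% and 6.48%. Zyx, zyxin of focal adhesions and tensed junctions, was at 67.8, 81.6 and 75.8 CPM in HCM and 148, 169 and 177 CPM in LCM. All HCM values were less than all LCM values (log2 fold change -1.13 ± 0.17, adjusted p = 1.2e-05). Tln1, which activates integrins, fell with it (log2 fold change -0.78 ± 0.14, adjusted p = 0.00013). Acta2, smooth muscle actin, was at 54.8, 83.6 and 67.9 CPM in HCM and 21.7, 27.2 and 26.97 CPM in LCM, without overlap (log2 fold change 1.44 ± 0.34, adjusted p = 0.0036). The lower count was 2 without any 1 of the libraries other than HCM replicate 3 and without a filter on low counts. Of 18 YAP and TAZ targets, 1 was higher and 1 lower, below the background on both sides, with Ccn1 and Ccn2 at -0.61 ± 0.26 and 0.07 ± 0.34.

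Of 18 tested genes of TGF-β and BMP response, 5 were lower and none was higher. Tgfbi, a matrix protein induced by TGF-β, was at 29.7, 34.9 and 34.7 CPM in HCM and 75.6, 89.7 and 97.5 CPM in LCM, well apart (log2 fold change -1.40 ± 0.13, adjusted p = 9.1e-09). Tgfb1, the ligand, was at 11.4, 13.4 and 15.4 CPM in HCM and 22.6, 30.98 and 30.7 CPM in LCM, with every HCM value below every LCM value (log2 fold change -1.07 ± 0.15, adjusted p = 9.1e-06). The repressor Snai2, found in basal keratinocytes and in epithelial-mesenchymal transition, was the 1 called gene of 23 tested mesenchymal genes (log2 fold change -0.91 ± 0.20, adjusted p = 0.0015), while Vim, the mesenchymal filament, was at -0.30 ± 0.81.

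Cholesterol and fatty acid synthesis genes were higher in HCM for 20 of 34 tested members and lower for 1, with a median of 0.76; 9 were higher without TMM factors. The rise ran along the mevalonate pathway. Mvd, which makes isopentenyl diphosphate, was at 32.6, 39.01 and 40.1 CPM in HCM and 13.2, 15.8 and 12.9 CPM in LCM, without overlap (log2 fold change 1.42 ± 0.16, adjusted p = 1.5e-07). Idi1, the next enzyme, was at 101, 64.8 and 61.5 CPM in HCM and 33.05, 20.9 and 24.5 CPM in LCM, again apart (log2 fold change 1.53 ± 0.28, adjusted p = 0.00024), and Pmvk and Fdps, the steps before and after, rose by 1.90 ± 0.35 and 2.48 ± 0.44. Fdft1, Cyp51 and Dhcr7, of the sterol branch, had log2 fold changes of 1.38 ± 0.15, 1.29 ± 0.16 and 0.73 ± 0.22. The fatty acid branch did not follow: Fasn and Acaca were at -0.22 ± 0.20 and 0.10 ± 0.13, and the desaturase Fads1 was the lower member (log2 fold change -0.66 ± 0.13, adjusted p = 0.00049).

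Among protein-coding genes that averaged 5 CPM or more and did not overlap between the media, those with the largest rise included transporters and secretory genes that no list held. Slc6a14, an amino acid transporter, was at 24.3, 8.48 and 15.4 CPM in HCM and 0.634, 0.408 and 0.208 CPM in LCM and Aqp5, a water channel of glands, at 10.9, 21.4 and 13.96 CPM in HCM and 0.899, 0.3500000 and 0.677 CPM in LCM. Neither gene overlapped between the media, and the log2 fold changes were 5.25 ± 0.42 and 4.56 ± 0.43. Arg1, arginase, rose by 4.92 ± 0.49, the glucose transporter Slc5a1 by 3.95 ± 0.42, the membrane mucin Muc15 by 4.42 ± 0.43 and the membrane glycoprotein Prom2 by 3.51 ± 0.26. Mt4, the metallothionein of stratified epithelia, was at 6.03, 77.2 and 8.77 CPM in HCM and 1.16, 1.11 and 0.885 CPM in LCM, so that replicate 2 set its mean, and without that library the log2 fold change was 2.81 and the call was lost (adjusted p = 0.0504).

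On the other side, the largest falls were smaller in size. Phldb1, which anchors microtubules at the basal cortex, was at 5.31, 4.96 and 4.89 CPM in HCM and 25.2, 22.8 and 19.2 CPM in LCM, without overlap (log2 fold change -2.15 ± 0.21, adjusted p = 1.3e-08). Clip2, a microtubule plus-end protein, and Arl4c, a small GTPase of the membrane, had log2 fold changes of -1.98 ± 0.25 and -1.92 ± 0.18. Cyp26b1, which degrades retinoic acid, was at 20.7, 18.5 and 19.8 CPM in HCM and 62.7, 65.3 and 63.8 CPM in LCM, with very little spread (log2 fold change -1.70 ± 0.19, adjusted p = 1.8e-07). Gli3, a factor of Hedgehog signalling, Dab2, an endocytic adaptor, and Nuak1, a kinase, had log2 fold changes of -1.71 ± 0.30, -1.77 ± 0.33 and -1.79 ± 0.20.

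The same contrast was set beside WT cells at 72 h, which share no library with it. At 72 h, 3232 genes differed between the media (21.4%), with 10.6% higher and 10.8% lower in HCM. This balance also depends on the scaling: without TMM factors 25.6% of 3845 calls at 72 h were higher. Of the 1163 genes higher at 24 h, 670 were higher at 72 h, which is 57.6% of the 24 h list and 41.8% of the 1602 genes higher at 72 h, and 31 were lower at 72 h. Of the 980 lower genes, 473 were lower at 72 h (48.3% of the 24 h list and 29% of the 72 h list), and 38 were higher. The test of the difference between the responses called 657 genes (4.35%), 337 with a more positive (2.23%) and 320 with a more negative (2.12%) fold change at 72 h. This test and the next ones share the WT 24 h libraries with the values above.

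Late envelope genes responded more at 72 h. Of 51 cornified envelope genes, 47 were higher in HCM at 72 h with a median of 3.73, and 24 had a larger response than at 24 h by the test of the difference, against none with a smaller one (0 by edgeR and by DESeq2, 2 at an unadjusted p below 0.05). Lor had log2 fold changes of 1.24 ± 0.37 at 24 h and 4.05 ± 0.39 at 72 h (difference 2.82 ± 0.51, adjusted p = 0.00075), and Lce1g had 0.25 ± 0.38 and 4.61 ± 0.39 (difference 4.37 ± 0.52, adjusted p = 3.8e-06). Ivl had 0.98 ± 0.27 and 2.38 ± 0.28 (adjusted p = 0.028 for the difference). The medians of the spinous, kallikrein and barrier lipid lists were 1.52, 2.02 and 1.28 at 72 h, against 1.53, 1.78 and 1.06 at 24 h. Some of their genes and regulators responded less at 72 h. Tgm1 had 2.43 ± 0.21 at 24 h and 0.33 ± 0.20 at 72 h (adjusted p = 2e-05 for the difference), and the transcription factors Ovol1, Zfp750 and Grhl1 had 0.03 ± 0.15, 0.18 ± 0.14 and 0.49 ± 0.20 at 72 h, each below its 24 h response (adjusted p = 3.8e-06, 1.8e-06 and 0.00074).

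Some genes turned around between the times. Il33 had a log2 fold change of 2.88 ± 0.24 at 24 h and -0.95 ± 0.22 at 72 h (difference -3.84 ± 0.32, adjusted p = 3.4e-08). Foxn1, a factor of keratinocyte differentiation and hair, had 1.26 ± 0.17 and -1.37 ± 0.17 (adjusted p = 7.7e-08), and Edn2, an endothelin, had 1.52 ± 0.34 and -1.30 ± 0.34 (adjusted p = 0.0003). In the other direction, Etv5 had -1.77 ± 0.28 at 24 h and 2.41 ± 0.28 at 72 h (adjusted p = 7.7e-08) and Lrig1 had -0.99 ± 0.21 and 1.36 ± 0.21 (adjusted p = 8.6e-06). Jag2 and Trp73, lower at 24 h, had -0.14 ± 0.18 and -0.37 ± 0.16 at 72 h, and both differences passed the test (adjusted p = 1.6e-05 and 3.8e-06). Kcnip3, Krt10 and Krt4 had 6.38 ± 0.60, 3.98 ± 0.42 and 4.73 ± 0.31 at 72 h, and their differences from 24 h did not pass (adjusted p = 0.92, 0.1 and 0.68).

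**Figure D4:**
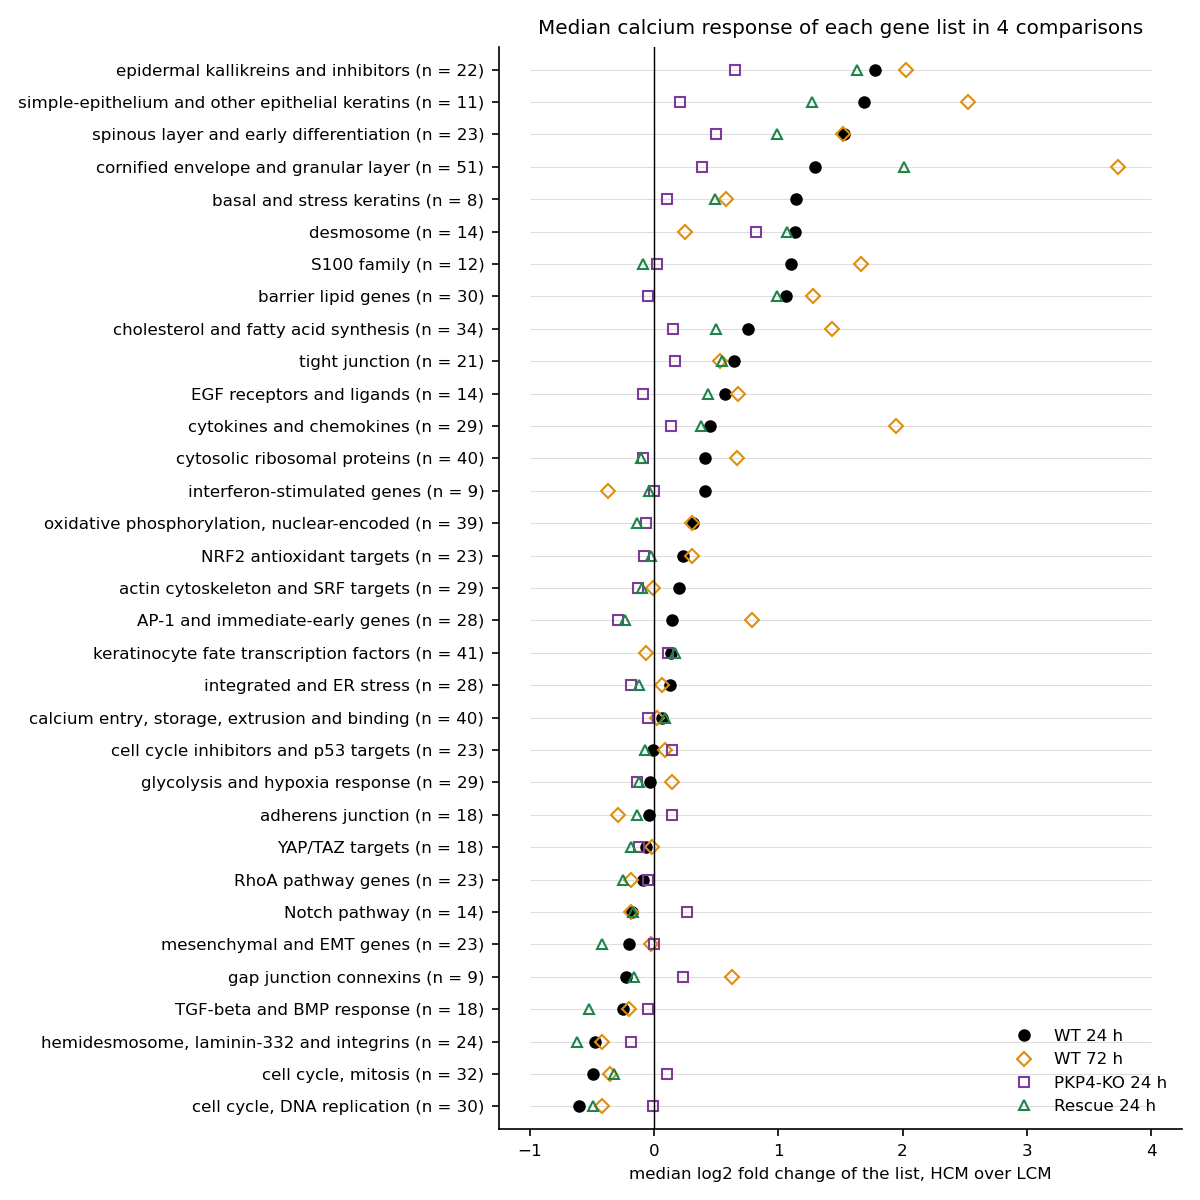
Points give the median log2 fold change of HCM over LCM of each gene list in WT at 24 h, WT at 72 h, PKP4-KO at 24 h and Rescue at 24 h. For the cornified envelope list the medians are 1.30, 3.73, 0.38 and 2.01, and for DNA replication genes they are -0.61, -0.42, -0.01 and -0.49.

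In PKP4-KO cells at 24 h, 428 genes differed between the media (2.83%), with 1.44% higher and 1.4% lower in HCM. The test of the difference from WT called 607 genes (4.02%), with a more positive fold change in PKP4-KO for 186 (1.23%) and a more negative one for 421 (2.79%). Without TMM factors the balance turned, with 208 positive and 158 negative differences and a median over all genes of 0.277 instead of -0.015. With only the PKP4-KO groups in the fit, 10 genes were called in PKP4-KO. Of the 1163 genes higher in WT, 141 were higher in PKP4-KO, which is 12.1% of the WT list and 65% of the 217 genes higher in PKP4-KO. The 2 genotypes were cultured from different pups, so genotype and culture cannot be told apart in this contrast.

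Barrier lipid genes had 13 of 30 members with a smaller response in PKP4-KO and none with a larger one, and their median was -0.05 there against 1.06 in WT. Cdsn had 3.58 ± 0.22 in WT and -0.14 ± 0.20 in PKP4-KO (difference -3.72 ± 0.29, adjusted p = 4.2e-09), Alox12b had -0.48 ± 0.31 (adjusted p = 0.0002 for the difference) and Krt4 had -0.18 ± 0.31 (adjusted p = 2.3e-06). Ivl was higher in HCM in WT and lower in PKP4-KO (-1.33 ± 0.28, adjusted p = 0.00043 for the difference). The EGF receptor ligand Areg went the same way, with 1.46 ± 0.28 in WT and -2.43 ± 0.29 in PKP4-KO (adjusted p = 1.2e-06). In DNA replication genes the difference was positive for 8 of 30 members and negative for none, and Cdt1 had -1.12 ± 0.14 in WT and -0.19 ± 0.14 in PKP4-KO (adjusted p = 0.0038).

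Other genes did not differ between the genotypes by the test, without the intervals excluding a difference. Desmosomal genes had no call in the difference (0 of 14 by edgeR, 2 by DESeq2 and 3 at an unadjusted p below 0.05, all smaller in PKP4-KO), with medians of 1.13 in WT and 0.82 in PKP4-KO, and Dsg1a had 2.38 ± 0.38 and 2.95 ± 0.43 (difference 0.57 ± 0.55, adjusted p = 0.74). Krt10 had 1.87 ± 0.39 in PKP4-KO (difference -0.54 ± 0.54, adjusted p = 0.76) and Il33 had 2.73 ± 0.25 (difference -0.15 ± 0.33, adjusted p = 0.91). Zfp750 had 1.96 ± 0.15, with a difference from WT of -0.04 ± 0.21.

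In Rescue cells, 1808 genes differed between the media at 24 h (12%), with 6% higher and 5.96% lower in HCM, and the test of the difference from WT called 10 genes (0.0662%), 2 more positive (0.0132%) and 8 more negative (0.0529%) in Rescue, with 984 at an unadjusted p below 0.05. Of the genes higher in WT, 664 were higher in Rescue (57.1% of the WT list and 73.2% of the Rescue list), and of the lower genes 528 were lower (53.9% and 58.6%). Cdsn had 2.60 ± 0.21 in Rescue and Cldn23 had 4.39 ± 0.34. Aqp5 and Krt15, which rose in WT, had 0.54 ± 0.43 and 0.15 ± 0.25 in Rescue, and both differences passed the test (adjusted p = 0.0017 and 0.0017). Areg had -0.69 ± 0.26 (adjusted p = 0.016 for the difference), and Id3, lower in WT, had -0.36 ± 0.15 (adjusted p = 0.039).

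**Figure D5:**
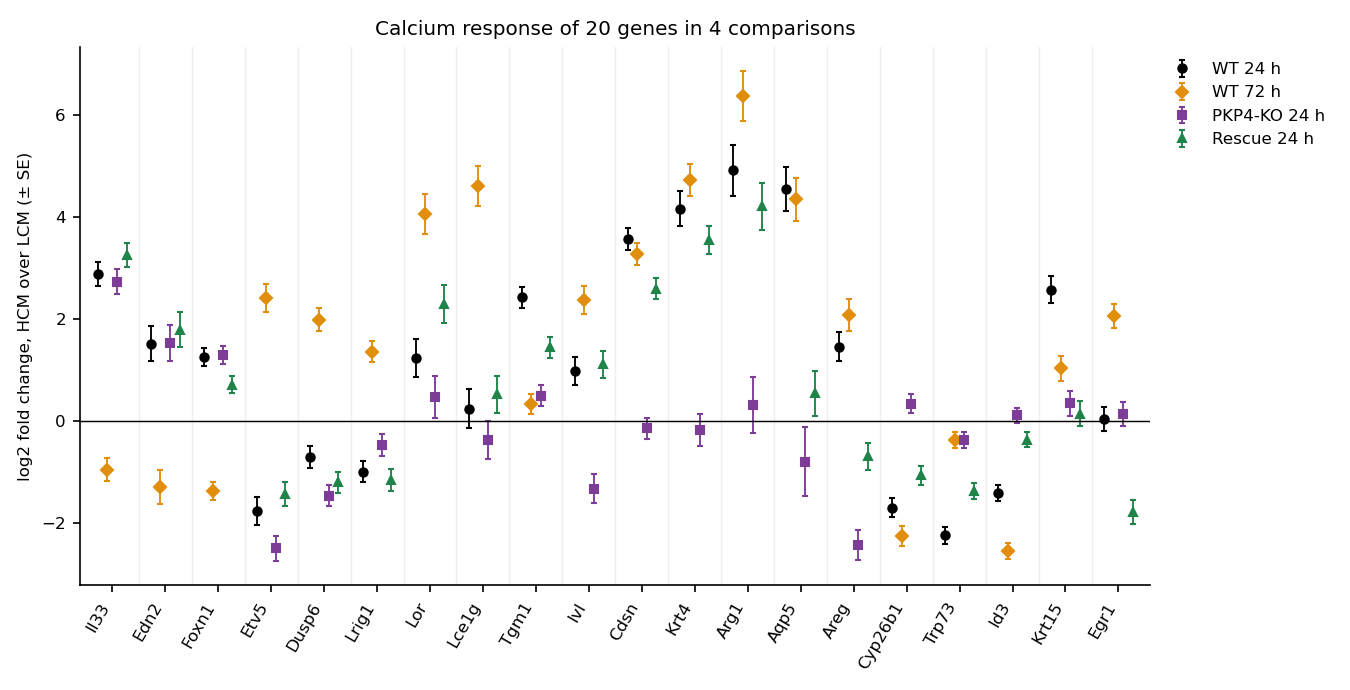
Points with bars are the log2 fold changes of HCM over LCM ± SE for 20 genes in WT at 24 h, WT at 72 h, PKP4-KO at 24 h and Rescue at 24 h. Cdsn stands at 3.58 in WT at 24 h, 3.27 at 72 h, -0.14 in PKP4-KO and 2.60 in Rescue, and Il33 at 2.88, -0.95, 2.73 and 3.26.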

How the data were processed

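Poly(A) RNA of mouse keratinocytes was sequenced in 36 libraries, and per the labels 3 libraries belong to each of 12 groups of genotype, time and medium. The authors aligned strand-specific read pairs with HISAT2 2.1.0 to GRCm39 (mm39), to which the GFP-PKP4 sequence had been added, discarded secondary alignments with SAMtools 1.10, counted reads per gene with featureCounts 2.0.0 and deposited the counts, which are whole numbers without normalization, and the gene lengths, used here as deposited. Whether the counting used the strand is not given in the sources used here. The 6 libraries described here held 13602728 to 18295615 counts, where 3 counts correspond to 0.153 to 0.216 CPM. The floor of 3 counts covers counting error only.

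Genes were filtered with filterByExpr (15114 of 55358 left), scaled with TMM factors and tested in R 4.3.3 with edgeR's quasi-likelihood test (edgeR 4.0.16) with Benjamini-Hochberg adjustment, with all 36 libraries in 1 model, which had 12 group means and left 24 residual degrees of freedom. Differences between responses were contrasts of the same model. A standard error is the size of the log2 fold change divided by the root of F. The fold is a bound against 3 counts per library for a gene at or below 3 counts throughout a group. An exact permutation test of 3 against 3 libraries cannot go below p = 0.1, so none was used. The scripts were tested on simulated data.

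The 33 function lists, 5 marker lists and the genes to name were chosen with earlier results of these data known. Named were, in each list, up to 4 called genes at each end and every member of a list of at most 12 genes, known markers, the RhoA genes, up to 15 protein-coding genes at each end without overlap and with a mean of at least 5 CPM, up to 5 genes at each end of each difference, and the 10 most abundant genes per kb of each group, 240 in all. Genes outside this rule that the text names were chosen after their values were seen. Some named genes are not reported here.

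The alternatives tried were a fit of the compared groups alone, each library left out in turn, the replicate number as a block, DESeq2 1.42.0, scaling without TMM factors, every gene kept, and a minimum of 10 counts per library. An offset for gene length and list counts, list medians and further genes without HCM replicate 2 were added after seeing the data. The labels number the replicates, and deviations from the group mean correlated at 0.483, 0.348 and 0.35 between HCM and LCM libraries of the same number, against -0.422 to 0.035 for other pairs, so the numbers may pair the libraries. The main fit holds no block, so its counts, standard errors and p-values do not use such a pairing. With the block 1899 genes were called at 24 h, against 2143 in the main fit.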

Additional observations from a re-analysis of the deposited data

Results flagged for a closer look

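The response at 24 h differed from that of the same cells at 72 h in 657 genes by the test of the difference. Of the 240 named genes, 57 were called in this test, 34 with a more positive and 23 with a more negative response at 72 h. Only the extremes and known markers among them are given here, as the log2 difference of the responses. On the positive side these were Pllp (6.04), Lce1g (4.37), Lce1j (4.35), X2210017I01Rik (4.35), Lce1i (4.34), Lor (2.82) and Ivl (1.40). On the negative side they were Il33 (-3.84), Edn2 (-2.81), Cables1 (-2.70), Foxn1 (-2.63), Arhgap29 (-2.45) and Tgm1 (-2.10). Several of the first set encode late envelope proteins, and Pllp, plasmolipin, was at 1.03, 0.862 and 0.408 CPM in HCM and 1.798, 0.233 and 0 CPM in LCM at 24 h, too low and too variable for a call.

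The response differed between PKP4-KO and WT cells at 24 h in 607 genes. Of the 240 named genes, 76 were called, 28 with a positive and 48 with a negative difference, and again only extremes and known markers are given. It was smaller in PKP4-KO for Aqp5 (-5.35), Arg1 (-4.60), Prr15l (-4.60), Krt4 (-4.35), Dnase1l3 (-4.32), Ivl (-2.31) and Tgm1 (-1.93). It was more positive for Kif26b (2.36), Mylip (2.28), Cyp26b1 (2.04), Srl (2.04) and Ctnnal1 (1.98). These genes were named for the size of this difference, apart from Ivl and Tgm1, so their values are a description.

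Between Rescue and WT cells at 24 h the response differed in 10 genes. Aqp5 (-4.02), Krt15 (-2.43), Areg (-2.15), Egr1 (-1.82) and Rgma (-1.82) had a more negative response in Rescue, and Id3 (1.04) had a more positive one.

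The row for the introduced GFP-PKP4 sequence held reads in WT libraries, which should not carry it. The highest count was 113, in HCM replicate 2, against 1902 to 15325 in the Rescue libraries, and the 3 LCM libraries had 0, 1 and 82. The source of these reads was not tested.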

How the results depend on the processing

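Of the 180 named genes called at 24 h, 125 kept their call under each of the alternatives, 55 lost it under at least 1 and 0 were called in the opposite direction. Of the 60 others, 11 were called under at least 1 alternative. The number of genes called at 24 h was 1899 with the replicate block (1053 higher and 846 lower), against 2143 without it, and among named genes the block ended the calls given beside them and those of Ankrd37 (adjusted p = 0.056), Dlx3 (0.053), Fos (0.055), Hey1 (0.057), Itpr1 (0.112), P4ha1 (0.052) and Trpv3 (0.099), and added Col1a1 (0.034). It was 1375 with only the groups compared, 2586 with DESeq2, 2368 without TMM factors, 1467 without a filter, 1996 with at least 10 counts in every library, 2493 with the length offset and 1602 to 1882 with 1 library left out.

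For PKP4-KO at 24 h the count of 428 became 799 with DESeq2, 237 without TMM factors, 227 without a filter, 10 with only its groups in the fit and 224 to 351 with 1 library left out. For Rescue at 24 h 1808 became 1203 without a filter. The difference between 72 h and 24 h gave 988 genes with DESeq2 and 396 without a filter. The difference between PKP4-KO and WT gave 366 without TMM factors, of which 56.8% were positive against 30.6%, 349 without a filter and 255 with only the groups compared. The difference between Rescue and WT gave 50 with DESeq2, 5 without a filter, 0 with only the groups compared, 28 with the length offset and 4 to 10 with 1 library left out. The cause of these changes was not tested.

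Directions turned for genes that were not called. Without TMM factors the log2 fold changes were Arhgap23 -0.19, Cfl1 -0.20, Csf1r -0.33, Eef1a1 -0.22, Egr1 -0.23, Gjb2 -0.072, Krt14 -0.13, Krt19 -0.12, Lce1g -0.07, Pecam1 -0.074, Pllp -0.20, Pmel -0.26, Rhoa -0.26, Rock1 -0.22, Rplp0 -0.056 and Rps2 -0.20. With the length offset they were Eef1a1 -0.009, Pmel -0.07, Ppp1r12a 0.06, Rock2 0.018 and Rps2 -0.031. With only the groups compared Krt5 was 0.021 and Ppp1r12a 0.00, and with the block Pmel was -0.15 and Rock1 -0.01. With 1 library left out the ranges were Cfl1 -0.078 to 0.25, Csf1r -0.42 to 1.94, Egr1 -0.08 to 0.12, Gjb6 -5.58 to 2.06, Krt18 -4.50 to 0.90, Krt19 -0.10 to 0.47, Krt5 -0.11 to 0.068, Lce1g -0.027 to 0.52, Mki67 -0.58 to 0.011, Pllp -0.42 to 2.69, Pmel -0.75 to 0.58, Ppp1r12a -0.36 to 0.17, Rhoa -0.04 to 0.07, Rhob -0.19 to 0.046, Rock1 -0.48 to 0.51, Rock2 -0.52 to 0.31, Rplp1 -0.30 to 1.05, Rps2 -0.15 to 0.19 and Thy1 -8.16 to 0.46. With 3 libraries in each group and the depths given above, small changes of low genes were not detectable.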

Other observations

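Several lists outside the differentiation program are described here. Of 23 tested NRF2 antioxidant targets, 4 were higher in HCM (17.4%) and 2 were lower (8.7%), the latter 5 without TMM factors. The shares of all tested genes were 7.69% and 6.48%. The glutathione transferases Gsta1 and Gsta4 and the sulfiredoxin Srxn1 rose: Srxn1 was at 102, 94.8 and 93.2 CPM in HCM and 46.8, 51.3 and 51.3 CPM in LCM, without overlap (log2 fold change 0.95 ± 0.13, adjusted p = 3.4e-06), and Gsta1 and Gsta4 rose by 1.01 ± 0.24 and 0.996 ± 0.20. Txnrd1, thioredoxin reductase, was at 22.98, 17.1 and 23.5 CPM in HCM and 46.3, 50.8 and 52.7 CPM in LCM, with all HCM values below all LCM values (log2 fold change -1.23 ± 0.28, adjusted p = 0.0029), and Slc7a11, the cystine transporter, fell by 1.17 ± 0.28 on the log2 scale. Called members of this list thus lay on both sides, with the share of lower ones near that of all tested genes. Hmox1 and Nqo1, often read as markers of the pathway, were at 0.46 ± 0.20 and -0.09 ± 0.20 and did not pass the test.

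Glycolysis and hypoxia genes had 4 of 29 tested members higher (13.8%) and 3 lower (10.3%), against 7.69% and 6.48% of all tested genes. Ndrg1, a stress gene of differentiating cells, was at 113, 101 and 95.7 CPM in HCM and 46.3, 55.9 and 50.4 CPM in LCM, without overlap (log2 fold change 1.02 ± 0.17, adjusted p = 6e-05), and Pfkp, a phosphofructokinase, was at 35.1, 24.6 and 31.1 CPM in HCM and 42.8, 51.6 and 50.7 CPM in LCM, lower in HCM (log2 fold change -0.67 ± 0.16, adjusted p = 0.0034). The higher count was 2 without TMM factors and without LCM replicate 1 or 3, and the lower count was 5 without TMM factors and 1 without LCM replicate 2, without a filter and with only these 6 libraries. Ldha and Vegfa, common hypoxia readouts, were at 0.03 ± 0.13 and -0.34 ± 0.30 without a call.

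Of 28 tested genes of the integrated and ER stress responses, 1 was higher and 1 lower (3.57% each), below the shares of all tested genes. Xbp1, a factor of secretory cells, was the higher one (log2 fold change 0.80 ± 0.14, adjusted p = 0.00023, 0.090 without TMM factors). Of 9 tested interferon-stimulated genes, Ddx58, the RNA sensor RIG-I, was at 76.3, 55.3 and 67.9 CPM in HCM and 28.9, 25.02 and 21.2 CPM in LCM, with separate groups (log2 fold change 1.41 ± 0.21, adjusted p = 1.5e-05), and at 72 h it had -0.57 ± 0.21 (adjusted p = 7e-05 for the difference).

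No gene of 40 ribosomal proteins was called in either direction by edgeR, with 1 member higher at an unadjusted p below 0.05 and 1 called higher by DESeq2, and the median log2 fold change was 0.41, or -0.01 without HCM replicate 2. The same held for 39 nuclear-encoded oxidative phosphorylation genes, with 0 calls by edgeR and by DESeq2, 1 at an unadjusted p below 0.05 and a median of 0.31, or 0.03 without HCM replicate 2. HCM and LCM libraries did not overlap in 1 of the 40 ribosomal genes, against 28.4% of all tested genes. Most of these genes are short, and the shortest of 5 equal length classes of all tested genes had a median of 0.25.

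Reads of S100b, a gene of glia and melanocytes, appeared mainly in the libraries numbered 1, with 1.65, 0 and 0 CPM in HCM and 7.46, 0.525 and 0 CPM in LCM. S100a4 had reads almost solely in HCM replicate 2, with 0, 3.95 and 0 CPM in HCM and 0, 0.0583 and 0 CPM in LCM. The collagen Col1a1 had 2, 0 and 0 counts in HCM and 30, 5 and 9 counts in LCM, the highest in LCM replicate 1. None of these genes was called by edgeR with all 36 libraries, and Col1a1 was called lower in the fit that pairs replicates (log2 fold change -4.36, adjusted p = 0.034). Without HCM replicate 2 the log2 fold change of S100a4 was -1.87, against 5.67 ± 2.80 with it.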
